A study of Mus musculus with 3 samples.

Results

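The genes described here encode parts of the Nodal, Lefty and BMP signaling system of the blastocyst: the ligands Nodal, Gdf3 and Bmp4, the secreted inhibitors Lefty1 and Lefty2, the receptors Acvr2b and Bmpr1a, and the intracellular transducers Smad2, Smad4 and Smad5. They were chosen by name. Their probes were found through the RefSeq accession that the array files give for each non-control probe, which named 20 probes for these 10 genes among 56591 probes and 23454 named genes on the array. Acvr2b, Bmpr1a, Smad2, Smad5, Gdf3 and Bmp4 had 2 probes each, Smad4 had 5, and Nodal, Lefty1 and Lefty2 had 1.

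Nodal and its relative Gdf3 signal through activin receptors and a coreceptor of the Cripto family, and the receptors phosphorylate Smad2 and Smad3, which enter the nucleus with Smad4. BMP4 signals through other receptors, among them Bmpr1a, to Smad1 and Smad5, which also pair with Smad4. Lefty proteins are both targets of Nodal signaling and its inhibitors, and in the early mouse embryo the system is best known for its part in epiblast identity, in the exchange between the epiblast and the extraembryonic tissues, and in later axis formation.

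The study collected mouse blastocysts in 3 conditions to ask how maternal age, and suppression of CXCL5-CXCR2 signaling in embryos of older females, bear on gene expression. CXCL5 is a secreted chemokine and CXCR2 is its receptor. Each condition was 1 pool of 30 blastocysts measured on 1 array with 1 dye, so there were no replicates, no test was possible and every value below describes that pool. Superovulated ICR females, an outbred strain, were mated, and their zygotes were kept in KSOM medium for 96 h. Females of the young condition were 3 to 6 weeks old and those of both aging conditions 43 to 53 weeks old. The young and the aging embryos had no treatment, while the suppressed aging embryos were cultured with a neutralizing antibody against CXCL5 at 10 μg/ml together with a CXCR2-selective antagonist at 10 nM. The antibody and the antagonist were given together, so their separate contributions cannot be told apart, and treated young embryos were not analysed here. All embryos had grown to expanded blastocysts in vitro.

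Levels are given as log2 intensity minus the 75th percentile of the same array, so that 0 is the brightness below which 75% of the probes of that array lay. This percentile was an intensity of 145, 155 and 122 on the young, aging and suppressed aging array. Between 56.4% and 58.7% of probes were well above background, down to a level of -4.20, -4.32 and -3.93 on the 3 arrays in that order. The labelled tissue was checked against its markers: all 8 trophectoderm, all 7 epiblast and inner cell mass and all 6 primitive endoderm markers examined were above background on each array. Of 7 cumulus and granulosa cell markers, 2 were above background on each array, and Fshr, Has2, Inha, Ptx3 and Tnfaip6 were at background on all of them. Of 8 maternal oocyte transcripts, 4, 5 and 3 were above background on the young, aging and suppressed aging array, and the intensity summed over the list was 103, 294 and 91.1. Of 4 genes listed as blood markers, Hbb-bt and Ptprc were at background on all 3 arrays. The other 2 (Hba-a1 and Pecam1) were above background on each array, and the list had summed intensities of 176, 290 and 143. These sums are not scaled between arrays. Scaled as levels, they were -0.49, 0.93 and -0.43 for the maternal list and 0.28, 0.90 and 0.22 for blood. In pools of whole blastocysts, fewer cells of a type and less RNA per cell cannot be told apart.

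A probe is called different below where its log2 difference between 2 arrays is over 1, a 2-fold difference in either direction. Differences of 1 array against another are followed by the scanner's own error after ±, which covers the reading of the spot and not the variation between pools of embryos. Where a probe was not well above background on 1 of the arrays, the difference is given as a limit from that array's detection limit. Where its measured level was higher than the detection limit, that level was used. Levels of different probes cannot be compared, because each probe has its own brightness. A second probe of a gene reads the same pool again and is not a replicate.

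All 20 probes were above background on at least 1 array and 18 on all 3, the exceptions being the single Lefty1 probe and the dimmer Smad5 probe. In aging against young, 5 of the 20 probes differed over 2-fold, 1 higher (Gdf3) and 4 lower (Nodal, Bmp4, Smad4 and Smad5), a share of 25.0% where 21.1% of the 35758 probes compared on the whole array did so. In suppressed aging against aging, 5 of 19 probes did, 3 higher (Nodal, Bmp4 and Smad4) and 2 lower (Lefty2 and Gdf3), a share of 26.3% beside 19.0% of all probes. In suppressed aging against young, 2 of 20 probes did, both lower (Lefty2 and Smad5), a share of 10.0% beside 18.1% of all probes. The counts are close to those of the array as a whole and are no result about these genes. With normexp background correction in place of the scanner's own, with an offset of 50 added to each intensity, 0, 0 and 1 (Lefty2) of the member probes were over 2-fold apart, where 4.52%, 3.83% and 3.85% of all probes were. The median log2 difference of the member probes was -0.17, 0.05 and -0.01 in the 3 comparisons, against -0.03, 0.02 and -0.00 over all probes. Aging against young and suppressed aging against aging share the aging array, so a deviation of that array alone enters both with opposite sign, and the values of a probe in these comparisons are not independent.

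**Figure D1:**
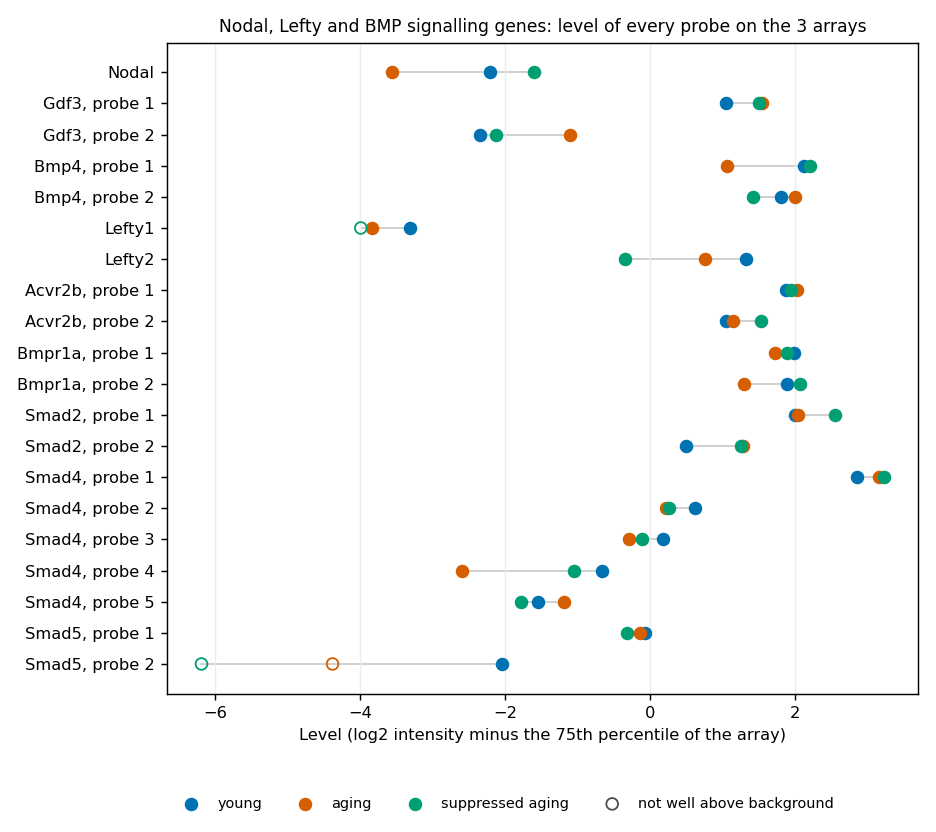
Level of each of the 20 probes on the young, aging and suppressed aging array, in log2 units relative to the 75th percentile of each array; probes of a gene are numbered from the brightest, and open circles are spots not well above background. Nodal, Gdf3 probe 2, Bmp4 probe 1, Lefty2, Smad4 probe 4 and Smad5 probe 2 spread over more than 1 log2 unit, while the receptor probes lie close together on the 3 arrays.

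Nodal, the ligand that maintains the epiblast, was dim and had the widest differences among the 3 ligands. Its only probe, A_52_P633560, had intensities of 31.4, 13.1 and 40.3 in the young, aging and suppressed aging pools, or levels of -2.21, -3.56 and -1.60. The aging pool was lowest and the suppressed aging pool highest. The log2 difference was -1.35 ± 0.30 in aging against young, a 2.55-fold lower value, and 1.95 ± 0.29 in suppressed aging against aging, a 3.88-fold higher value. Suppressed aging was above young by 0.61 ± 0.23. With normexp the first 2 differences were -0.41 and 0.85, under 2-fold. Large differences were common at this brightness: of all probes with a mean level below -2, where the Nodal probe lies, 33.2% differed over 2-fold in aging against young, 31.5% in suppressed aging against aging and 28.8% in suppressed aging against young.

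Bmp4, the BMP ligand among the 10 genes, was bright, but its probes went different ways. The brighter probe, A_51_P383741, had levels of 2.13, 1.07 and 2.22 on the young, aging and suppressed aging array, from intensities of 635, 325 and 569. It was lowest in the aging pool, with a difference of -1.06 ± 0.20 against young, and suppressed aging was above aging by 1.14 ± 0.20 and differed from young by 0.09 ± 0.20. With normexp the differences of this probe were -0.87 in aging against young and 0.98 in suppressed aging against aging. The other probe, A_55_P2154387, had levels of 1.82, 2.00 and 1.43, with aging highest and suppressed aging lowest. Its differences were 0.18, -0.57 and -0.39 in the comparisons of aging with young, suppressed with untreated aging and suppressed aging with young, none over 2-fold. Of all probes with a mean level between 0 and 2, where the Bmp4 probes lie, 12.7%, 10.3% and 10.4% differed over 2-fold in the same comparisons.

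Gdf3, a Nodal relative produced by pluripotent cells, was higher in aging than in young embryos by both probes. The brighter probe had levels of 1.05, 1.55 and 1.51, and the dimmer one, A_55_P2158448, of -2.35, -1.10 and -2.12 on the young, aging and suppressed aging array. Aging exceeded young by 0.50 ± 0.20 with the first and 1.25 ± 0.23 with the second. The probes parted after suppression: the brighter one differed from aging by -0.04 ± 0.20, whereas the dimmer one differed from aging by -1.02 ± 0.23 and from young by 0.23 ± 0.24. With normexp the dimmer probe gave 0.43 in aging against young and -0.31 in suppressed aging against aging. Of all probes with a mean level between -2 and 0, where this probe lies, 22.8% and 20.9% differed over 2-fold in these comparisons.

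The inhibitors Lefty1 and Lefty2 bind Nodal and its coreceptor and limit the range of signaling. Lefty2 was highest in young and lowest in suppressed aging embryos. Its probe, A_66_P136102, had intensities of 364, 264 and 96.5 and levels of 1.33, 0.77 and -0.34. The difference was -1.11 ± 0.21 in suppressed aging against aging, -1.67 ± 0.21 in suppressed aging against young, a 3.19-fold lower value, and -0.56 ± 0.20 in aging against young. With normexp they were -0.75 for the first and -1.20 for the second. The suppressed aging pool thus lay farther from the young pool than the untreated aging pool did for this gene. Lefty1 was close to background, with levels of -3.31 in young and -3.83 in aging and a spot not well above background in suppressed aging. Aging differed from young by -0.52 ± 0.33, and suppressed aging was at least 1.54-fold below young. Between the aging arrays the limit, 1.07-fold, was within the scanner error, so their order was not resolved for Lefty1. The Lefty genes are close paralogs, and whether either probe also reads the other transcript was not tested, because probe sequences were not used here.

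**Figure D2:**
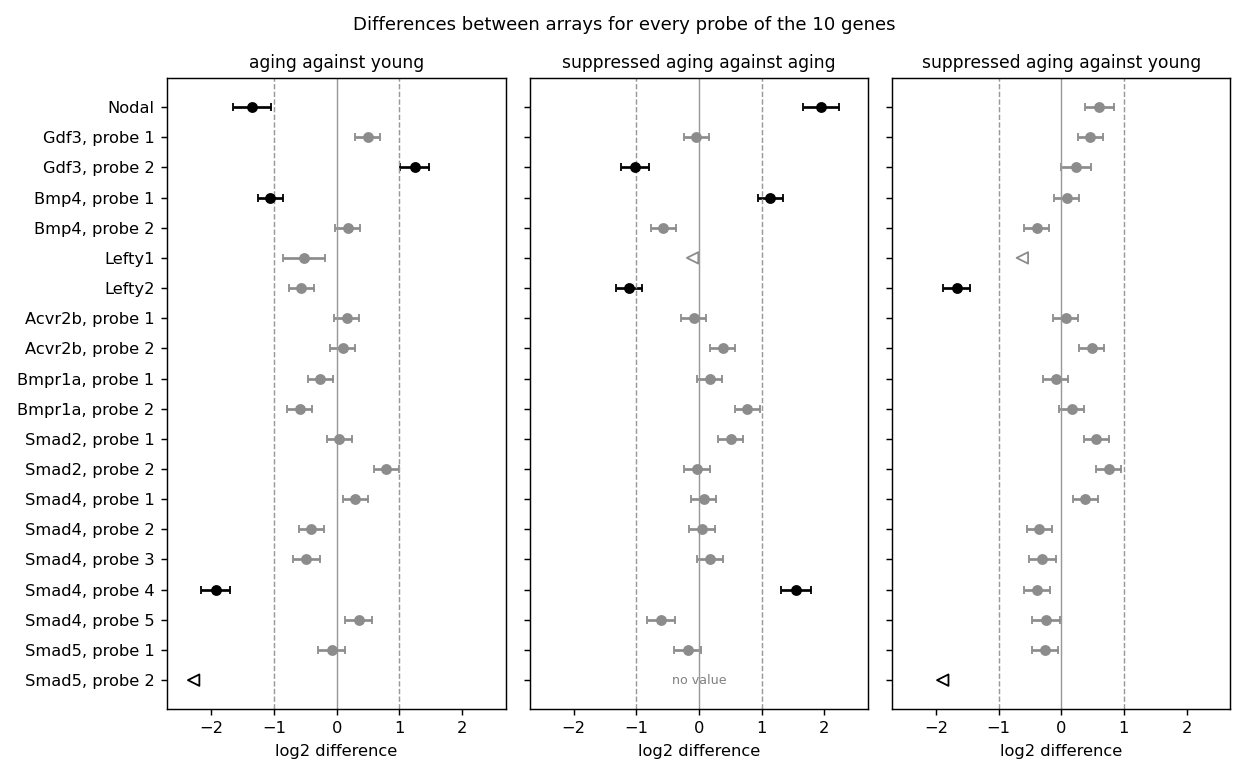
Log2 difference of every probe in the comparisons of aging with young, suppressed with untreated aging and suppressed aging with young; bars are the scanner's error of the spots, dashed lines mark 2-fold, black points are over 2-fold, and open triangles are limits from probes below background on 1 array. Nodal, Bmp4 probe 1 and Smad4 probe 4 are over 2-fold lower in the left panel and over 2-fold higher in the middle panel, which share the aging array, and Lefty2 is over 2-fold lower in the middle and right panels.

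The receptors differed little. Acvr2b, a type II receptor for activin and Nodal, had levels of 1.88, 2.04 and 1.95 with its brighter probe and of 1.05, 1.15 and 1.54 with the other. No Acvr2b difference was over 2-fold, and the widest was 0.49 ± 0.20, in suppressed aging against young with the dimmer probe. Bmpr1a, a type I receptor for BMP2 and BMP4, had levels of 1.99, 1.73 and 1.90 with its brighter probe and of 1.89, 1.30 and 2.07 with the other. Aging was lowest with both Bmpr1a probes, at -0.26 and -0.59 from young, and suppressed aging was above aging by 0.17 and 0.77 (± 0.20 each). These differences were below 2-fold, and those of the brighter probe were near the scanner error.

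Smad2, the transducer of Nodal and activin receptors, was higher in suppressed aging than in young embryos by both probes, but not over 2-fold. Its brighter probe had levels of 2.01, 2.05 and 2.56 and the other of 0.50, 1.29 and 1.26. The difference between suppressed aging and young was 0.56 and 0.76 (± 0.20 each). The brighter probe placed this step between aging and suppressed aging (0.51) and the other between young and aging (0.79).

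Smad4, the partner shared by both branches, had 5 probes that did not go one way. The brightest had levels of 2.86, 3.16 and 3.24, with differences of 0.30, 0.08 and 0.38 in the comparisons of aging with young, suppressed with untreated aging and suppressed aging with young. Only the fourth by brightness, A_55_P2745667, differed over 2-fold, with intensities of 92.0, 25.7 and 59.4 and levels of -0.66, -2.59 and -1.04. It gave -1.93 ± 0.23 in aging against young and 1.55 ± 0.24 in suppressed aging against aging, while the other 4 probes gave between -0.48 and 0.35 and between -0.60 and 0.18. With normexp this probe gave -0.86 and 0.68. In suppressed aging against young the 4 dimmer probes lay between -0.39 and -0.24 and the brightest at 0.38.

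Smad5, a transducer of BMP receptors, differed little by its brighter probe, with levels of -0.06, -0.14 and -0.32 and no difference beyond -0.26 ± 0.21. The dimmer probe, A_51_P452207, had a level of -2.04 in young embryos and was not well above background on both aging arrays. This put aging at least 4.84-fold and suppressed aging at least 3.70-fold below young for that probe, and left no value between the aging arrays. The brighter probe does not show this difference. With normexp the log2 differences of the dimmer probe were -0.50 in aging against young and -0.29 in suppressed aging against young, under 2-fold. Of all probes with a mean level below -2, where it lies, 33.2% and 28.8% differed over 2-fold in these comparisons.

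In the 7 genes with more than 1 probe, no gene had all its probes over 2-fold apart in a comparison. In the array as a whole, 3.20% of the 5555 named genes with at least 2 measured probes had all of them over 2-fold in one direction in aging against young, 2.53% of 5463 in suppressed aging against aging and 2.30% of 5480 in suppressed aging against young. All probes of a gene took one direction for 5 of 7 of these genes in aging against young (Gdf3, Acvr2b, Bmpr1a, Smad2 and Smad5), with Smad5 losing this after centring on housekeeping genes (0.02 for its brighter probe), for 2 of 6 in suppressed aging against aging (Gdf3 and Bmpr1a) and for 4 of 7 in suppressed aging against young (Gdf3, Acvr2b, Smad2 and Smad5). Over all genes with at least 2 probes the share was between 48.8% and 50.7%. The differences of Nodal and Lefty2, each read by 1 probe, have no second probe to set beside them.

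**Figure D3:**
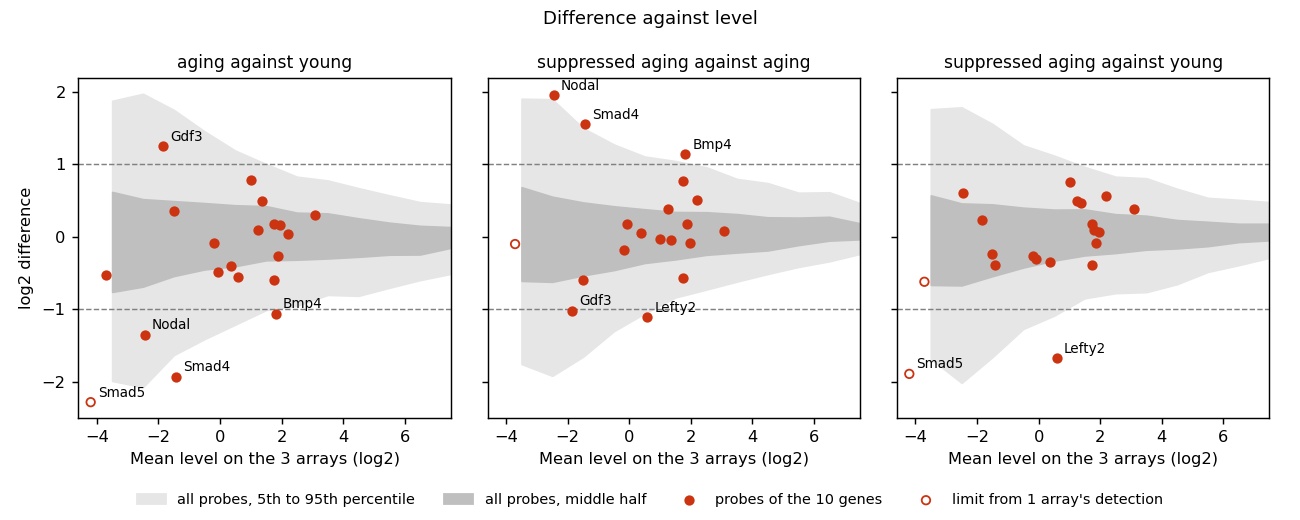
Log2 difference against mean level on the 3 arrays for the probes of the 10 genes (red; open for limits), over the interquartile range (dark grey) and the 5th to 95th percentiles (light grey) of all probes in steps of 1 log2 unit. The grey bands are wide at low levels, where Nodal lies, and narrow at high levels. Smad5 probe 2, at a mean level of -4.20, lies to the left of the bands. At or beyond the edge of the 5th to 95th percentile band lie Bmp4 probe 1 and Smad4 probe 4 in the left panel. The same probes with Nodal and Lefty2 do so in the middle panel, and Lefty2 in the right panel.

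The rest of the pathway was read from a list of 95 other genes in 6 roles, with 140 probes, of which 70 genes were above background on at least 1 array. By the brightest probe of each gene, 19 of 69 genes compared differed over 2-fold in aging against young (11 higher and 8 lower, median 0.13), 10 of 67 in suppressed aging against aging (4 higher and 6 lower, median -0.05) and 10 of 68 in suppressed aging against young (5 higher and 5 lower, median 0.16). As shares these were 27.5%, 14.9% and 14.7%, where 21.1%, 19.0% and 18.1% of all probes differed so. With normexp 5 of 67 genes remained over 2-fold in aging against young (Smad3, Dand5, Fstl1, Acvr1b and Msx2). In suppressed aging against aging 1 remained (Otx2) and in suppressed aging against young 1 (Acvr1b). Of all probes, 4.52%, 3.83% and 3.85% were over 2-fold apart with normexp, and so few genes are no result about the list. The 2 probes of Msx2 had opposite signs in aging against young, at -1.55 for the brighter and 0.57 for the other in the main setting.

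Smad3, which carries Nodal and activin signals beside Smad2, was the only gene of this list with 2 or more probes to have all of them over 2-fold apart in more than 1 comparison. Its levels were -1.45, 0.89 and -0.15 with the brighter probe and -1.80, 0.04 and -1.41 with the other on the young, aging and suppressed aging array. Aging was above young by 2.34 ± 0.21 and 1.84 ± 0.22, and suppressed aging differed from aging by -1.04 ± 0.21 and -1.45 ± 0.21. Aging was the highest of the 3 pools with both probes. Against young, suppressed aging was higher by 1.30 with the brighter and 0.39 with the other probe. With normexp the Smad3 values were 1.58 and 1.15 in aging against young and -0.76 and -0.91 in suppressed aging against aging. Smad2 gave no difference over 2-fold in these comparisons. Smad1, a BMP transducer like Smad5, was not well above background in young embryos and had levels of -2.36 and -2.78 in aging and suppressed aging, so that both were above young by at least 3.57-fold and 2.68-fold. With normexp the log2 differences of Smad1 were 0.39 and 0.40. Foxh1, a DNA-binding partner of Smad2 and Smad3, was level on the 3 arrays, at 2.61, 2.60 and 2.37. Smad7, an inhibitory Smad, had levels of -0.18, -0.05 and -0.71 with its brighter probe, while its dimmer probe gave -1.28 ± 0.32 in aging against young.

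Among 14 Smads and partners compared, 3 were over 2-fold higher and 1 lower in aging against young, 1 was lower in suppressed aging against aging, and 3 were higher in suppressed aging against young. As shares these were 28.6%, 7.14% and 21.4%, beside 21.1%, 19.0% and 18.1% of all probes. With so few genes in each role, the counts by role here and below are no result about that role. Of 14 receptors and coreceptors above background on at least 1 array, 13 could be compared in aging against young, 1 higher and 3 lower, and 14 in the other comparisons, with 2 higher in suppressed aging against aging and 1 higher and 2 lower in suppressed aging against young. The receptor shares were 30.8%, 14.3% and 21.4%. Acvr1b, the type I receptor through which Nodal and activin signal, had levels of 1.56, -0.24 and 0.33 with its only probe. Both aging pools were below young, with differences of -1.80 ± 0.21 for aging and -1.23 ± 0.20 for suppressed aging. Tdgf1, which encodes Cripto, the Nodal coreceptor, had 5 probes, with differences between -0.19 and 0.69 in aging against young and between -0.42 and 0.13 in suppressed aging against aging. Rgmb, a BMP coreceptor, differed from young by -1.62 ± 0.25 in aging and -1.86 ± 0.28 in suppressed aging with its brighter probe, and by -0.70 and -0.19 with the other.

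Probes of the other receptors often disagreed. Acvr2a, the relative of Acvr2b, gave 0.76 with its brighter and -1.35 with its other probe in aging against young, and 0.03 and 1.03 in suppressed aging against aging. Acvr1, a type I BMP receptor, gave 0.11 and 1.14 in aging against young and 0.06 and -2.50 in suppressed aging against aging. For Acvr2a the probes thus differed in sign in aging against young, and for Acvr1 the brighter probe showed nothing beyond its scanner error of 0.21. Tgfbr1, a type I TGF-beta receptor, was highest in suppressed aging with its brighter probe, by 1.31 ± 0.20 against aging, and its other probe gave 0.42 ± 0.29. Tgfbr3, a TGF-beta coreceptor with 1 probe, gave -1.19 in aging against young and 1.24 in suppressed aging against aging. Bmpr2, the type II BMP receptor, gave 0.13 and -0.68 in these comparisons.

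**Figure D4:**
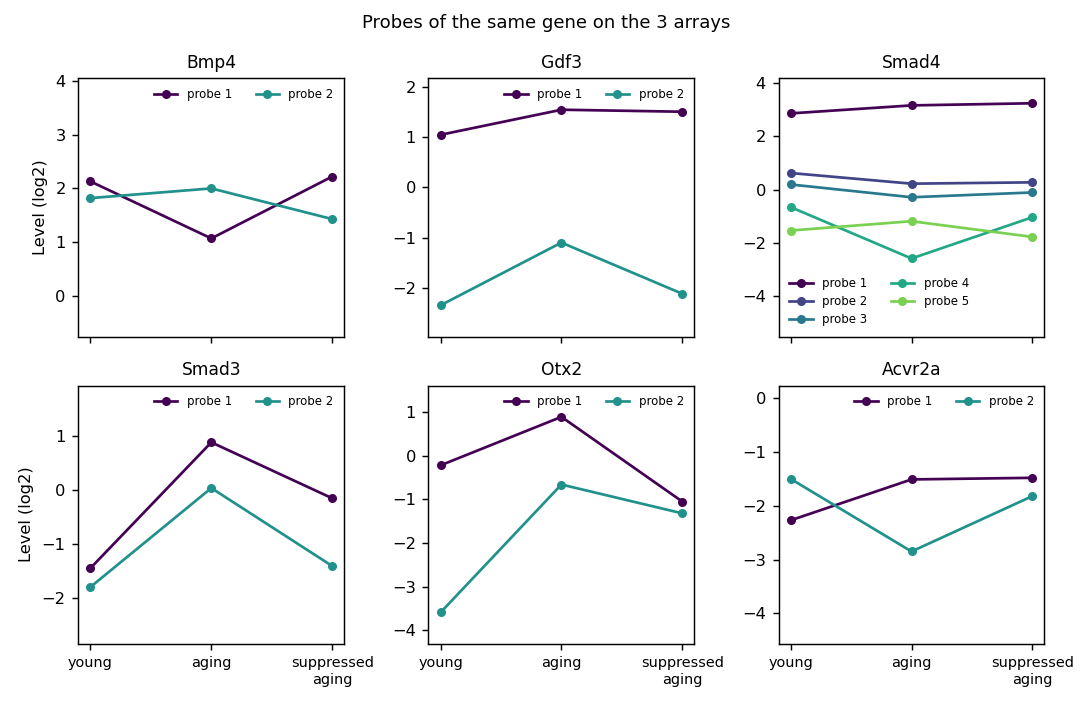
Level of each probe of Bmp4, Gdf3, Smad4, Smad3, Otx2 and Acvr2a on the young, aging and suppressed aging array, in log2 units relative to the 75th percentile of each array; each line is 1 probe, numbered from the brightest, and each panel has its own axis. Both probes of Smad3 and of Otx2 are highest in aging embryos, whereas the Bmp4 probes and the Acvr2a probes go opposite ways from young to aging and Smad4 probe 4 departs from the other 4 probes.

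Of the Nodal, activin and TGF-beta relatives, 9 of 15 were measured on at least 1 array. In aging against young 3 were over 2-fold higher and 1 lower, in suppressed aging against aging 2 of 8 were lower, and in suppressed aging against young 1 was higher and 1 lower. These shares were 44.4%, 25.0% and 22.2%, beside 21.1%, 19.0% and 18.1% of all probes. Bmp15, an oocyte growth factor, was not well above background in young embryos and had levels of -1.25 in aging and -3.45 in suppressed aging, a difference of -2.20. Bmp15 and Gdf9, which was at -1.99 and -2.05 in young and aging embryos and not well above background in suppressed aging, are also in the maternal transcript list, whose summed intensity was highest in aging; the part of leftover oocyte RNA in these values was not tested. Inhba, Tgfb1 and Tgfb2 were at background on all 3 arrays. Of 9 other BMP ligands, 1 was over 2-fold lower in aging against young, and of 7 compared, 2 were higher in suppressed aging against aging and 1 lower in suppressed aging against young. The BMP ligand shares were 11.1%, 28.6% and 14.3%. Bmp8b was higher by 1.35 in suppressed aging than in aging at a low level (-2.16). Gdf7 was 0.99 ± 0.29 higher in suppressed aging than in young, and 3.80-fold higher than its measured level in aging (-4.27). That aging spot was not well above background but lay above the array's detection limit of -4.32, so the 3.80-fold is a ratio to it and not a lower limit. With normexp the values in suppressed aging against aging were 0.50 for Bmp8b and 0.52 for Gdf7.

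Of the extracellular antagonists and convertases, Dand5 and Fstl1 differed the most. Dand5, a secreted antagonist of Nodal and BMP proteins, had levels of -2.49, -0.15 and -2.03, with differences of 2.34 ± 0.23 in aging against young and -1.88 ± 0.22 in suppressed aging against aging. Fstl1, a follistatin-like protein, had levels of -0.69, -3.65 and -2.68 with its brighter probe, with differences from young of -2.96 ± 0.29 in aging and -1.99 ± 0.24 in suppressed aging, and its other probe was at background on all 3 arrays. With normexp Dand5 gave 1.17 and -0.98, and Fstl1 gave -1.08 and -0.78. The antagonists Cer1, Fst and Grem1 were at background on all arrays. Furin and Pcsk6, the convertases that cleave the Nodal precursor, were not over 2-fold apart: Furin was at 3.30, 3.91 and 3.90 and Pcsk6, by its brighter probe, at 1.81, 1.98 and 1.57. Of 12 genes of this role compared, 1 was higher and 1 lower in aging against young, 2 were lower in suppressed aging against aging and 1 was lower in suppressed aging against young. These shares were 16.7%, 16.7% and 8.33%, beside 21.1%, 19.0% and 18.1% of all probes.

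Among 12 target genes compared, 3 were over 2-fold higher and 1 lower in aging against young, 1 was lower in suppressed aging against aging, and 0 were over 2-fold apart in suppressed aging against young. These shares were 33.3%, 8.33% and 0%, beside 21.1%, 19.0% and 18.1% of all probes. Otx2, a homeobox gene of the epiblast and a Nodal target, was higher in aging than in young by 1.10 ± 0.21 with its brighter and 2.93 ± 0.29 with its other probe. Suppressed aging differed from aging by -1.94 ± 0.21 and -0.66 ± 0.21. Aging was highest with both probes, but in suppressed aging against young the probes disagreed, at -0.84 and 2.26. With normexp the brighter Otx2 probe gave 0.82 and the other 1.03 in aging against young, so that the brighter one was no longer over 2-fold. Gsc, a Nodal target in gastrulation, was 1.25 higher in aging than in young, with levels of -0.82, 0.43 and -0.19. The Id genes, which answer to BMP signaling, did not go one way: Id1 was at -2.29, -1.86 and -2.14, Id2 at 3.17, 2.61 and 3.34, and Id3 at 0.09, 1.28 and 0.94. Of these only Id3 in aging against young was over 2-fold, at 1.19 ± 0.20.

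Of the 21 genes of the pathway list with at least 2 measured probes, Otx2 and Smad3 had all probes over 2-fold higher in aging against young, Smad3 had all lower in suppressed aging against aging, and 0 did in suppressed aging against young. Over all named genes with at least 2 measured probes, 3.20%, 2.53% and 2.30% had all over 2-fold one way in these comparisons. With 21 genes, such counts are no result about this list. The levels of epiblast and inner cell mass markers summed to 10.02, 10.29 and 10.17 on the young, aging and suppressed aging array, those of trophectoderm to 8.97, 8.57 and 8.80 and those of primitive endoderm to 5.91, 6.07 and 5.82 (log2 of the summed intensity relative to the 75th percentile). Single bright probes weigh heavily in these sums, Nanog with 90.9% of the epiblast, Dab2 with 73.0% of the primitive endoderm and Krt18 with 52.8% of the trophectoderm sum in young embryos. By the brightest probe of each gene, all 7 epiblast markers were higher in aging than in young, with a median of 0.36. By the same measure 6 of 8 trophectoderm markers were lower (median -0.28), and Elf5 was higher by 0.91. Some of these differences, such as Nanog (0.26) and Tead4 (-0.16), were near the scanner error of 0.20. Dimmer probes of Tfap2c (0.08), Tead4 (0.12) and Tdgf1 (-0.19) had the opposite sign. Others of Tdgf1 (0.45 and 0.69) and of Nanog (1.02) had the same sign. The primitive endoderm markers were mixed by their brightest probes, 4 of 6 being higher and Sox17 lower (-1.53). The dimmer Sox17 probe gave 0.33, and the dimmer Dab2 probes gave -0.88 and -0.49 where the brightest gave 0.12. Gata4 and Pdgfra kept their sign with the dimmer probes that gave a value. The part of these values in the differences of the signaling genes was not tested.

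**Figure D5:**
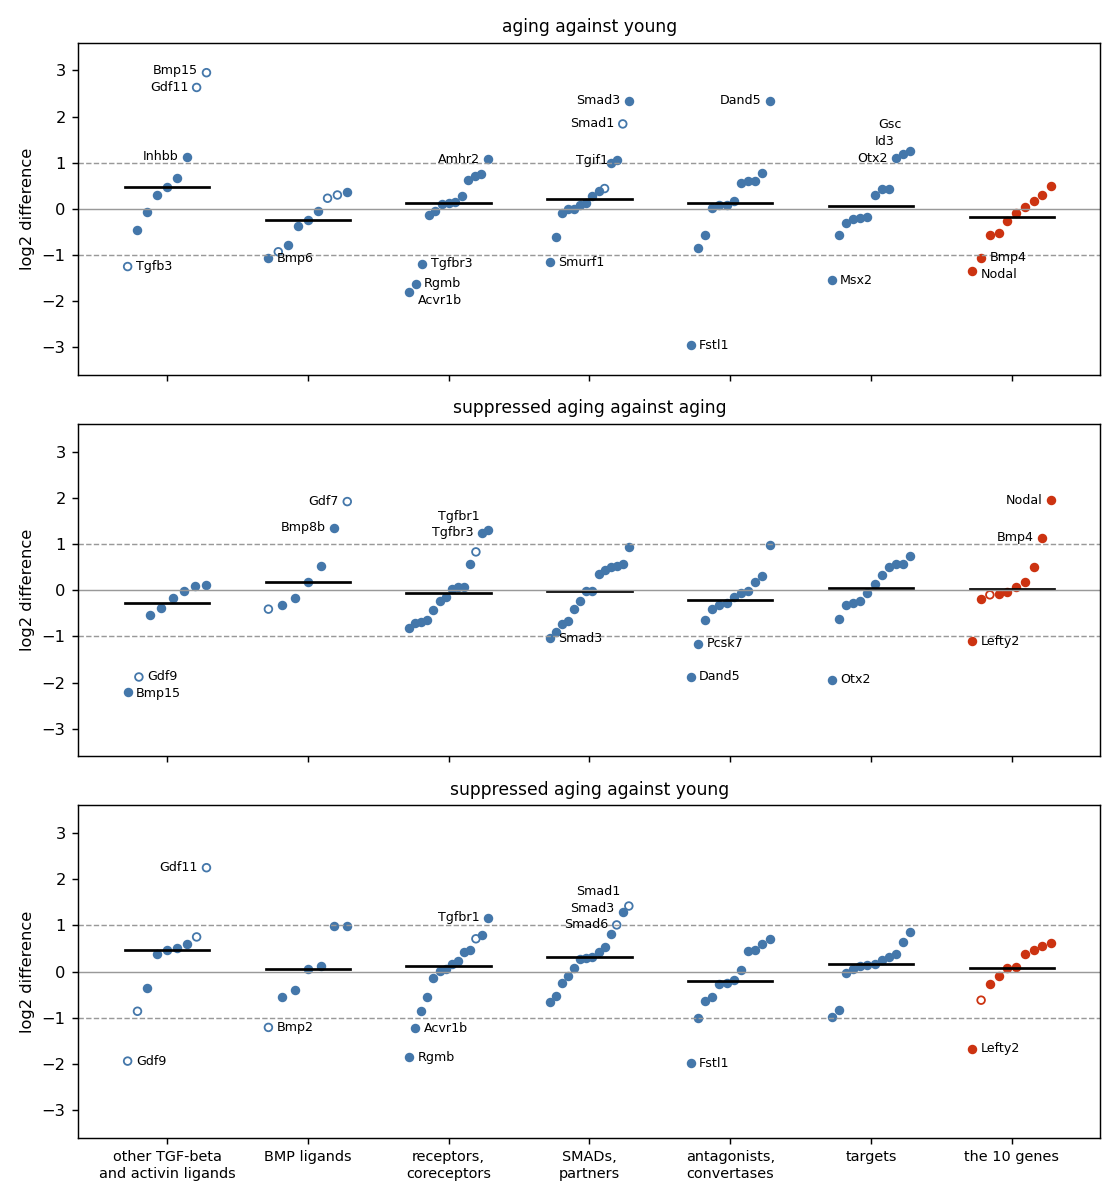
Log2 difference of the brightest probe of each gene in the 3 comparisons, by role in the pathway, with the 10 genes at the right in red; open circles are limits from a probe below background on 1 array, horizontal bars are medians, dashed lines mark 2-fold, and genes over 2-fold are named. The medians of all roles lie between -0.27 and 0.48, and in aging against young single genes such as Smad3, Dand5 and Fstl1 lie farther out than any of the 10 genes.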

How the data were processed

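Total RNA of 3 pools of blastocysts, 1 per condition, was hybridized to Agilent mouse arrays with Cy3. The labels name a low-input cRNA labeling kit, whereas the study's methods describe global PCR amplification before labeling, and either can compress or distort the levels of rare transcripts. The deposited values are linear spot intensity, background-subtracted by Agilent Feature Extraction 12.0.3.1 and not normalized between arrays, and the authors' table of processed values is this intensity times 1 factor per array (3.46, 3.34 and 3.96), which was checked on 30763 spots.

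Control spots and spots marked as outliers (between 85 and 118 per array) were left out, and 0 spots were saturated. Repeat spots of a probe were averaged, with a median SD of 0.0450 to 0.0524 log2 units. From each log2 intensity the 75th percentile of its array was taken off. Genes were named from RefSeq accessions through a gene table of GRCm38.p6, which gave 33754 probes 1 symbol; the array design names an older build, so no coordinates are given. Where only 1 of 2 arrays was well above background, the other was set to the higher of its measured level and its detection limit. The number of arrays limits the precision, and no P-value was computed.

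Named genes are the 10 members, 14 pathway genes always given, and the 3 highest and 3 lowest of the pathway list in each comparison; others named with a value, and those named as over 2-fold for all probes, were chosen after their values were seen. The members and lists were chosen with earlier results of these data known. Alternatives were normexp (limma 3.58.1, R 4.3.3, offset 50, on median spot and background intensity), centring on the median of detected probes or on the mean of 15 housekeeping genes, quantile normalization, the authors' processed values, outlier spots kept, other filters on dim probes, the brightest probe alone and a 5-fold threshold. A check on simulated data raised or lowered bright probes of a copy of the young array by far more than 2-fold. Their recovery was set by that size, so the check does not bear on smaller differences, dim probes or separate pools. Python 3.11.15, NumPy 2.4.6, pandas 2.3.3 and Matplotlib 3.10.9 were used. Probe sequences were not used here.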

Additional observations from a re-analysis of the deposited data

How the results depend on the processing

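No paired analysis was possible because no condition was measured on more than 1 array, which also left no replicate to omit. The 12 member differences over 2-fold kept their sign in all 72 values under 6 other ways of background correction, scaling or outlier handling, and 59 of these stayed over 2-fold. Of the 13 that did not, 11 came from normexp, 1 from centring on housekeeping genes (Bmp4, -0.96 in aging against young) and 1 from quantile normalization (Gdf3, -0.99 in suppressed aging against aging). Most of these ways could move a difference only slightly. Centring shifted the arrays by between -0.065 and 0.034 log2 units, and the authors' values are the same intensities times 1 factor per array. With normexp, the only way that treats the background differently, 1 of the 12 stayed over 2-fold. Of member probes over 2-fold, 5 in aging against young became 0 with normexp, 2 with the brightest probe of each gene, 0 at 5-fold and 1 with probes of a mean level above 0, the last chosen after seeing the data. The 5 in suppressed aging against aging became 0, 3, 0 and 2, and the 2 in suppressed aging against young became 1, 1, 0 and 1, and 1 with probes above background on both arrays. The stricter threshold and the filters count fewer probes by construction. The offset of 50 that normexp adds to each intensity likewise makes log2 differences smaller by construction, most of all for dim spots. How much of the change with normexp came from the offset and how much from its background correction was not tested. For the pathway list these alternatives were chosen after seeing the data: 19 genes in aging against young became 5 with normexp (2 higher and 3 lower) and 5 at 5-fold, 10 in suppressed aging against aging became 1 with normexp, 0 at 5-fold and 18 without a filter, and 10 in suppressed aging against young became 1, 0 and 21, and 5 with probes above background on both arrays. The authors' values gave 4 higher and 7 lower in the last comparison where the main scaling gave 5 and 5. Of 647 alternative values of named pathway probes 13 changed sign, as did 7 of 347 member values, all of them differences of at most 0.28 in the main setting. Every value on dim probes is limited by the nearness of the background.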
